A study of Mus musculus with 4 samples.

Results

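The genes described here encode the proteins that remove or read N6-methyladenosine (m6A) in messenger RNA, and the measurement is m6A on the transcripts of these genes themselves. They are the demethylase genes Fto and Alkbh5 and the reader genes Ythdf1, Ythdf2, Ythdf3, Ythdc1, Igf2bp1, Igf2bp2, Igf2bp3 and Hnrnpc. Every row of the site lists whose gene carried one of these 10 names, or had it as its current symbol, was taken. This gave 15 of the 10514 sites listed for wild-type (WT) pancreas and 5 of the 3937 sites listed for the mutant, here KO. The 10 genes were 10 of 5927 genes with a listed site in either genotype.

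The tissue was embryonic mouse pancreas at embryonic day 15.5. The KO (Mettl3pKO) carried a deletion of Mettl3, which encodes the enzyme that writes m6A, targeted to pancreatic progenitors that express Pdx1, and the WT carried none that the labels name. Dissected pancreata were used, which the labels call pancreatic cells, so cells that never expressed Pdx1, such as mesenchyme and vessels, keep Mettl3 in the KO. Each genotype had 1 library from antibody pull-down of m6A-bearing fragments (MeRIP) and 1 input library. The sources used here name neither the strain, the Cre line nor the number of pooled embryos.

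FTO and ALKBH5 are oxygenases that take the methyl group off m6A, so that the mark can be erased after it was written. The YTH domain proteins bind m6A directly: the cytoplasmic YTHDF proteins are known for translation and decay of marked messengers, and nuclear YTHDC1 for splicing and export. IGF2BP proteins are RNA-binding proteins known for stabilising their target messengers, and HNRNPC binds RNA stretches whose folding depends on m6A.

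No library was replicated, so there is no spread to set a difference against and no test between genotypes was run. WT and KO are therefore compared by what each list holds, and the fold enrichment, score and false discovery rate of a site, which are the authors' own values, are given next to each other with no ratio between genotypes. Read depth is unknown, and the lists hold no transcript level, so a gene missing from the KO list cannot be said to have lost its mark. Fewer cells of a type and less RNA per cell cannot be told apart in such tissue. The WT list was the longer by far, and its lowest false discovery rate was 9.75% against 45.92% in the KO list; the 5 KO sites described here had rates of 46.73% to 49.02%. Of 11 pancreatic epithelium markers 6 were in the WT list. Of these, Nkx6-1, Amy2a5 and Gcg were also in the KO list, and Sox9, Prss1 and Ins2 were not. Over all genes in the WT list 38.0% were also in the KO list. Of 3 endothelium markers 1 was in both lists, and of 3 blood markers 2 were in the WT list and 1 in both. Of 4 mesenchyme markers 3 were in each list, and neither neural marker had a site in either list. A site is not a level, so these counts do not measure cell make-up.

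A pair of listed sites reached the transcription start of their gene, where both a listed interval and reference bases were at hand. From each, a stretch of 30 bases is shown. The bases are RefSeq's on GRCm38.p6, of which the authors' mm10 is the same primary assembly, and 8 of the 10 genes matched an entry of that table. Both stretches lie on the minus strand, wholly inside the listed interval, and capitals mark GGAC, the core of the sequence at which the methyltransferase prefers to act. The Ythdf1 stretch, chr2:180920907-180920936, holds bases 1 to 30 of the transcript, and the Igf2bp3 stretch, chr6:49214908-49214937, holds bases 18 to 47. The Igf2bp3 stretch begins later and takes in a GGAC, so the stretches are not like windows.
Ythdf1, WT interval: gtcccagccgccgcggccgccattggagtc
Igf2bp3, KO interval: tcaaaaagccGGACactcggagcggctgcc
GGAC was searched in the first 50 transcribed bases on the RNA-sense strand, and its reverse complement GTCC for the other strand. It begins at base 28 in Igf2bp3 and is absent from the Ythdf1 window, where GTCC is present. Among 32851 such windows of all genes 18.9% hold GGAC, 17.4% GTCC and 33.3% at least one of them. The match is a description of these letters, and no single-base position of m6A is resolved by the lists.

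WT sites were listed for all 10 genes, and KO sites for Ythdf3, Igf2bp1 and Igf2bp3. That is 3 of 10, against 38.0% of all 5080 genes with a WT site. The share is near that background, so it is no result about these genes. All 3 genes of the KO list were also in the WT list, as were 69.5% of all genes with a KO site. The 7 others, Fto, Alkbh5, Ythdf1, Ythdf2, Ythdc1, Igf2bp2 and Hnrnpc, were listed in WT only and held 8 of the 15 WT sites. None of the 10 was listed in KO only. Of all 5927 genes with a site in either list, 847 were listed in KO only and 5080 had a WT site. With 10 genes, these counts too are no result about these genes.

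**Figure D1:**
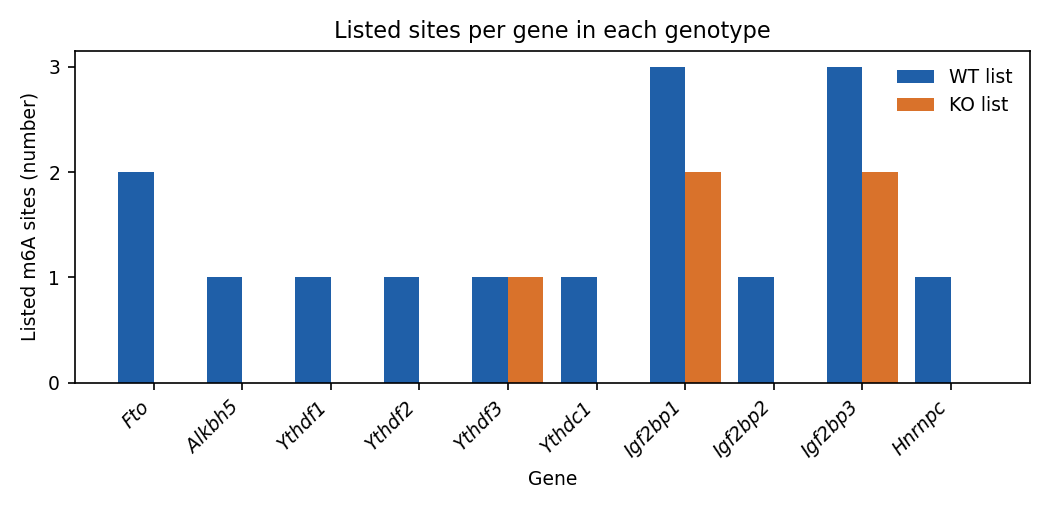
Number of listed m6A sites (y axis) in each gene (x axis), blue for the WT list and orange for the KO list. Igf2bp1 and Igf2bp3 each had 3 WT and 2 KO sites, Ythdf3 had 1 of each, and the other genes had no KO site.

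The share of genes also found in the KO list grew with the number of WT sites over the whole data set, and the 10 genes are given here against genes of equal number. Of the 7 genes with 1 WT site only Ythdf3 had a KO site, where 26.2% of the 2755 genes with 1 WT site did. Fto, with 2 WT sites, had none in KO, where 40.2% of 1062 genes did. Igf2bp1 and Igf2bp3, with 3 WT sites each, both had KO sites, where 51.8% of 548 genes did.

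At the level of sites the genotypes shared less than at the level of genes, over the whole data set too. Overlap by at least 1 bp with the other list was found for 1 of the 15 WT sites, which is 6.67%, against 12.2% of all WT sites, and for 1 of the 5 KO sites, against 32.6% of all KO sites. That site lies in Ythdf3. With so few sites, these counts are no result about these genes. The KO sites of Igf2bp1 and Igf2bp3 lay where no WT site was listed, so being listed in both genotypes meant overlapping intervals in 1 of the 3 genes. Over all 1929 genes listed in both, 54.1% had an overlapping pair.

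The demethylase genes were listed in WT only, with fold enrichments from 4.65 to 8.88 over their 3 sites. Fto, named for the human fat mass and obesity locus, spans 355.1 kb of chromosome 8 on the plus strand and had 2 WT sites far apart from each other. The first, at 91409223 to 91409841, was centred 27.1% of the way from the 5′ end and had a fold enrichment of MeRIP over input of 4.65, with 3.13% of WT sites below it. The second, at 91666282 to 91668439, was a long interval of 2158 bp with a fold enrichment of 8.83 and a score of 143.06. The score is 10 times the negative log10 of the peak caller's p-value, so a higher score stands for a smaller p. This second site ran to 6 bp beyond the annotated 3′ end of the gene, and the list assigns it to a different transcript from the first. It outranked 65.3% of WT sites in fold enrichment and 80.8% in score, and the first site 51.9% in score.

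Alkbh5 lies on chromosome 11 on the plus strand and spans 20.8 kb. Its single WT site, at 60547688 to 60547768, was the shortest of the 15 at 81 bp and lay 48.2% along the gene. Its fold enrichment of 8.88 exceeded that of 66.0% of WT sites, while its score of 66.44 exceeded that of 29.6%. The false discovery rate was 9.83%, close to the lowest of the list. Among the 15 sites the highest scores came with the highest rates, so this low rate does not mark a strong site. Fto and Alkbh5 thus reached nearly the same best fold enrichment in WT, and neither gene had a KO site to set beside it.

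The YTHDF genes had the lowest fold enrichments among the genes' best WT sites. Ythdf3 had 4.33, Ythdf1 4.44 and Ythdf2 5.71, with 1.49%, 1.89% and 13.0% of WT sites below them, while the median of the WT list was 7.91. Each of the 3 genes had a single WT site.

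Ythdf1 lies on chromosome 2 on the minus strand, and its site at 180920684 to 180920949 covered the very start of the gene. The interval began 13 bp before the annotated start site and took in the bases printed above. It was the only WT site over a start in the promoter table among the 8 genes with an entry, and 7.18% of 8410 WT sites in genes with such an entry covered any of the first 50 transcribed bases. Its score of 58.72 exceeded that of 17.3% of WT sites, so it was weak by both measures.

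Ythdf2, the reader best known for sending marked messengers to decay, had 1 WT interval of 1584 bp on chromosome 4 at 132204132 to 132205715, on the minus strand and 26.8% along the gene. Its score of 330.34 was the highest among the 15 sites and exceeded that of 97.1% of the WT list, although its fold enrichment was low. Its false discovery rate was 50.1%, where the other 14 sites had 15.6% or less. This rate also exceeded that of 97.1% of the WT list. The highest score of the 15 thus came with the highest rate, and the rate did not mark a weak score here. Ythdf2 was not alone in this. The next highest scores, 143.06 in Fto and 111.1 in Igf2bp2, had the next highest rates, 15.6% and 12.05%. In the whole WT list 86.7% of sites had a rate of at most 20%. No KO site was listed for Ythdf2.

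Ythdf3 carried the one pair of overlapping WT and KO sites. The WT site on chromosome 3 ran from 16213955 to 16216813 and the KO site from 16213955 to 16216600. Both began at the same base, and the WT interval ended 213 bp later, so the 2646 bp of the KO site lay wholly within the WT site and made up 92.5% of it. The fold enrichment was 4.33 in WT and 4.11 in KO, each low in its own list, with 1.49% of WT sites and 6.53% of KO sites below. The score was 77.02 in WT and 87.3 in KO, and the false discovery rate 10.05% and 46.73%. These intervals were among the longest listed, exceeding 97.0% of WT and 97.4% of KO sites in length. They lay at the end of the gene with the higher coordinate, the WT site stopping 224 bp short of it. Long intervals hide where within them a peak lay: of 196 overlapping pairs in which both intervals reached 1000 bp, 65.3% had the same start and 42.9% the same start and end. Over the whole list, WT intervals of at least 1000 bp were overlapped in 12.1% of cases and shorter ones in 12.3%.

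**Figure D2:**
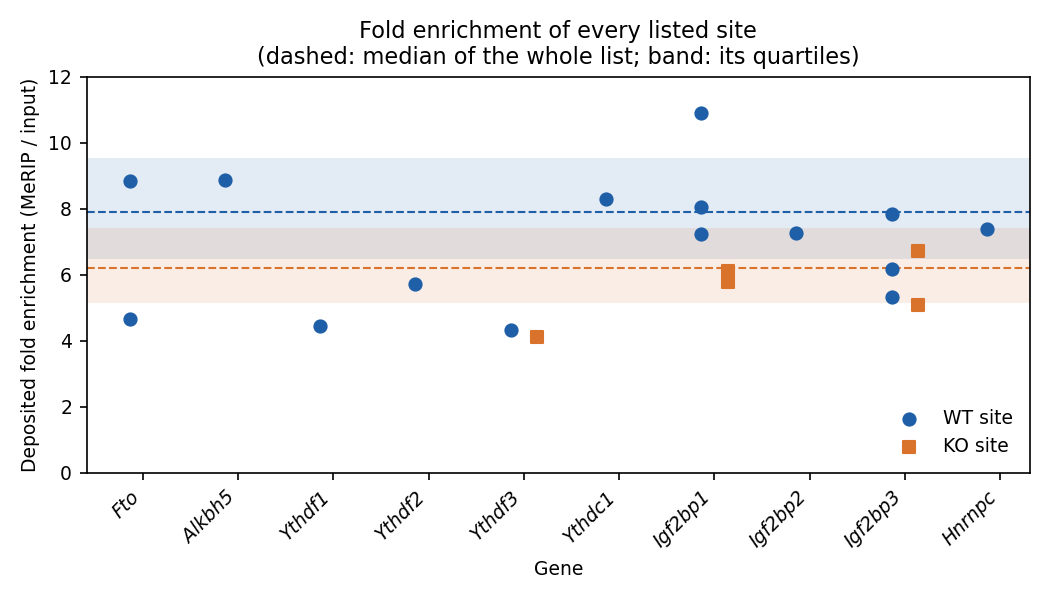
Deposited fold enrichment of MeRIP over input (y axis, linear) of each listed site, by gene (x axis), blue circles for WT and orange squares for KO sites. Dashed lines give the median of each whole list, 7.91 in WT and 6.20 in KO, and bands the quartiles. The WT sites of the YTHDF genes lie below the WT band, as do WT sites of Fto (4.65) and Igf2bp3 (6.17 and 5.34).

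Ythdc1, the nuclear reader, had 1 WT site of 102 bp on chromosome 5 at 86815629 to 86815730, on the plus strand and 35.8% along the gene. Its fold enrichment was 8.31, above that of 57.1% of WT sites, and its score 67.3. Hnrnpc had 1 WT site of 161 bp on chromosome 14 at 52077403 to 52077563, on the minus strand and 86.6% along the gene. Its fold enrichment of 7.39 and its score of 54.77 exceeded those of 40.6% and 10.2% of WT sites. Neither nuclear RNA-binding protein gene had a KO site. Hnrnpc has close processed copies in mammalian genomes that can share reads, and how multiply aligned reads were treated is not given, so its site is uncertain.

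The IGF2BP genes held 7 of the 15 WT sites and 4 of the 5 KO sites. Igf2bp2 differed from its relatives in having 1 long WT interval and none in KO. That interval, 1877 bp on chromosome 16 at 22059009 to 22060885, began at the last annotated base of this minus-strand gene, its 3′ end. Its fold enrichment was 7.28, with 38.3% of WT sites below, and its score of 111.1 exceeded that of 68.7%.

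Igf2bp1, whose protein is a fetal messenger stabiliser also called IMP1, had the highest fold enrichment of all 20 sites. Its 3 WT sites on chromosome 11 lay at 95958682 to 95959362, 95966651 to 95966782 and 95970669 to 95970791. Their fold enrichments were 10.91, 7.24 and 8.06 in that order. The first exceeded 87.1% of WT sites in fold enrichment but only 25.3% in score. The 2 KO sites lay at the opposite end of the gene, at 96004223 to 96004283 and 96005459 to 96005917, with fold enrichments of 6.12 and 5.79. All WT sites were centred in the first 27.8% of the gene's 48.8 kb counted from the lower coordinate, and both KO sites beyond 96.5%. The second KO interval stopped 27 bp short of the gene's higher end. The nearest WT and KO sites were 33.4 kb apart.

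Igf2bp3 had the same number of sites, and its KO sites too lay all to the same side of its WT sites. Its 3 WT sites on chromosome 6 lay at 49094140 to 49094256, 49105570 to 49105705 and 49107342 to 49107464, with fold enrichments of 7.83, 6.17 and 5.34. The gene is on the minus strand, and these sites were centred 93.1%, 84.3% and 83.0% of the way from its 5′ end. The KO sites, at 49117152 to 49117433 and 49214297 to 49214954, lay 75.4% and 0.648% along, with fold enrichments of 5.10 and 6.73. All KO sites were thus on the 5′ side of all WT sites, with 9.69 kb between the nearest 2. The second KO interval ended exactly at the start site of the promoter table and took in the GGAC stretch printed above. That start site lies 515 bp inside the outermost annotated end of the gene. The annotated gene Malsu1 spans 49073795 to 49139144 and so covers all 3 WT sites and the first KO site. The lists name no site for Malsu1, but without strand the reads of overlapping genes cannot be told apart, so these 4 sites are uncertain as to gene.

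**Figure D3:**
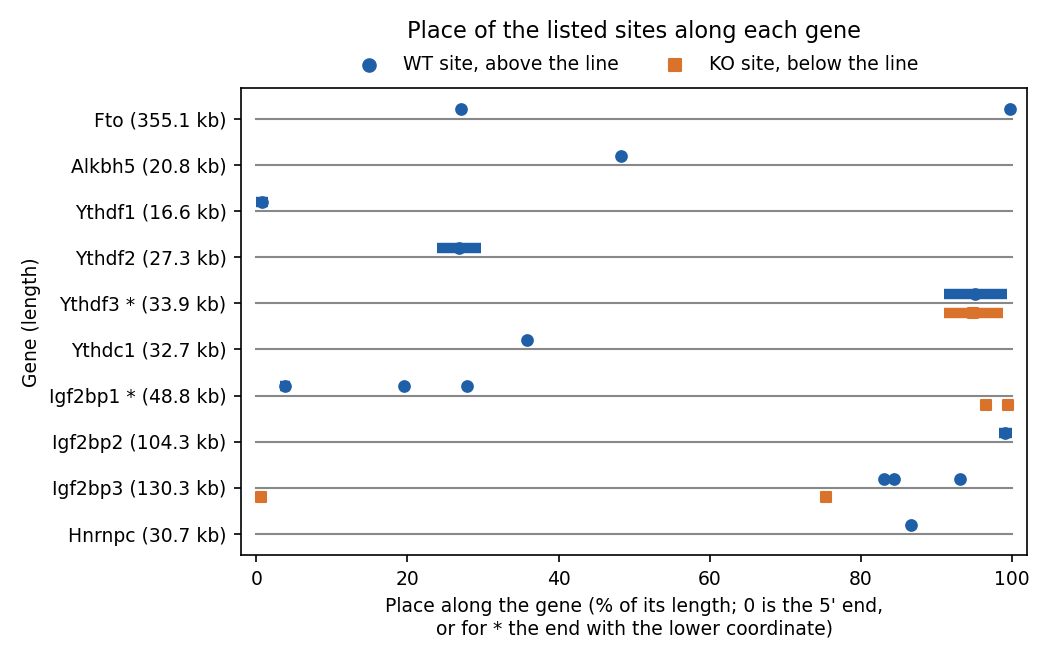
Place of each listed site along its gene in percent of the gene's length (x axis), 1 line per gene (y axis), WT sites in blue above and KO sites in orange below the line, with bars to scale. For Ythdf3 and Igf2bp1, marked with an asterisk, 0 is the end with the lower coordinate and otherwise it is the 5′ end; in Igf2bp1 and Igf2bp3 no KO site lies among the WT sites.

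This arrangement was looked for across all genes after it was seen in these genes. It was counted in genes listed in both genotypes on 1 chromosome with no overlapping pair. Of the 125 such genes with at least 2 sites in each list, as in Igf2bp1 and Igf2bp3, 32.0% had all KO sites on one side of all WT sites. Among the 89 of these with a known strand, as in Igf2bp3, the KO sites were all on the 5′ side in 19.1% and the WT sites in 14.6%. With any number of sites the strand was known in 707 genes, and these shares were 42.6% and 30.6%, where a gene with 1 site in each list always falls on one side or the other. The distance between the nearest WT and KO site had a median of 8.27 kb (quartiles 3.18 and 21.4) over all 885 genes without an overlapping pair, so that of Igf2bp3 was near the middle and that of Igf2bp1 above the upper quartile. KO sites covered any of the first 50 transcribed bases in 12.2% of 3067 cases, as the second Igf2bp3 site did. The corresponding WT share was 7.18%, and this difference between single libraries was not tested.

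Of the 15 WT sites 10 lay below the median WT fold enrichment and 9 below the median WT score of 84.4. Of the 5 KO sites 4 lay below the KO median fold enrichment of 6.20, the exception being the start-site interval of Igf2bp3, while 3 of the 5 lay above the KO median score of 68.9. Their median fold enrichment was 7.28 in WT and 5.79 in KO. Fold enrichment and score ranked the sites differently: Ythdf2 led by score and Igf2bp1 by fold enrichment. Of the 15 WT intervals 4 reached 1000 bp, in Fto, Ythdf2, Ythdf3 and Igf2bp2, or 26.7% against 16.8% of all WT sites. Among all WT sites the median fold enrichment was 7.22 in intervals of at least 1000 bp and 8.04 in shorter ones.

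**Figure D4:**
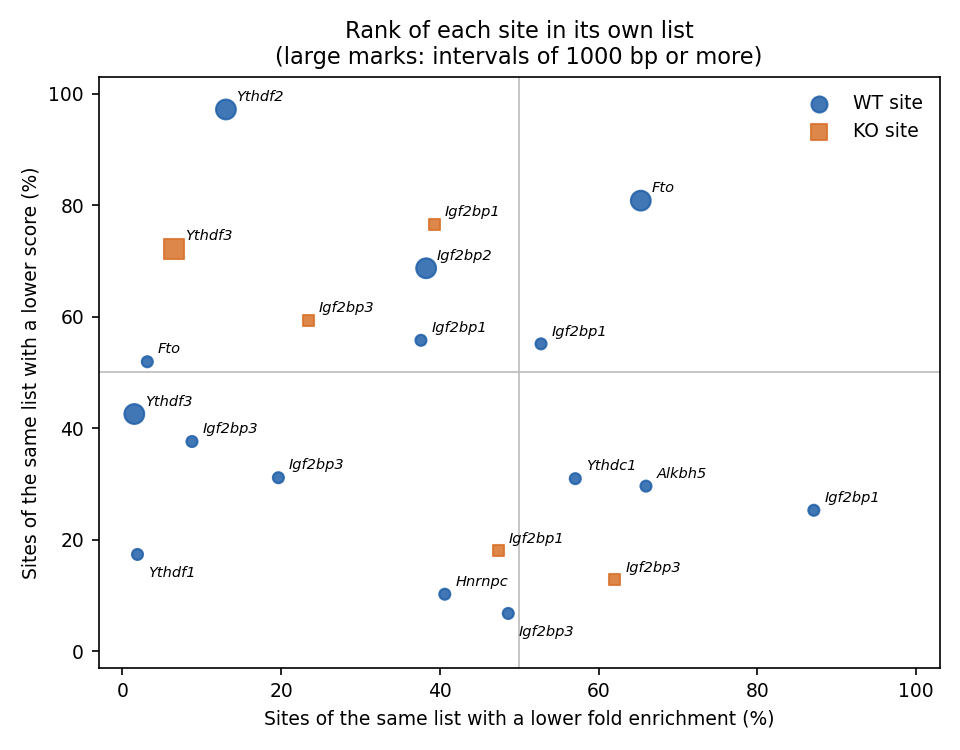
Rank of each of the 20 sites within its own list, as the percentage of sites with a lower fold enrichment (x axis) and with a lower score (y axis). Blue circles are WT and orange squares KO sites, large marks are intervals of at least 1000 bp, and grey lines mark 50%; the Ythdf2 site is high by score and low by fold enrichment.

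The other m6A genes offer a comparison by counts alone. Of 12 genes for the writer complex and other RNA methyltransferases 9 were in the WT list and 7 in both, with Rbm15 and Pcif1 in WT only. Mettl3 had no site in either list. The lists hold m6A sites and no transcript level, so the deletion itself cannot be checked here. Of 13 other readers and m6A-linked RNA-binding protein genes 6 were in the WT list and 4 in both: Elavl1, Eif3b, Eif3h and Snd1, each with an overlapping pair. Fmr1 (3 WT sites, best fold enrichment 12.15) and Lrpprc were listed in WT only. Among other genes of the AlkB family, to which both demethylases belong, Alkbh3 and Alkbh8 were listed in both genotypes with an overlapping pair and the other 5 in neither. Of 9 decay partners of the readers with a current symbol 4 had a WT site. Cnot1 (6 WT sites), Cnot2 and Cnot7, subunits of the deadenylase that shortens poly(A) tails, were in WT only, Cnot6 in both and Cnot8 in KO only. Of all genes in the WT list 38.0% were also in the KO list, which is the background for the genes in both among those with a WT site.

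Across all genes, 68 others had the same numbers as Igf2bp1 and Igf2bp3, 3 WT and 2 KO sites. The nearest to Igf2bp1 in best WT and best KO fold enrichment were Mier1 (10.80 and 6.39), Rsbn1 (10.86 and 5.50) and Rbfox2 (10.45 and 6.73). The nearest to Igf2bp3 were Fads2 (8.03 and 6.64), Taf15 (7.74 and 6.41) and Atp2b4 (7.81 and 6.12). All 6 had an overlapping pair of WT and KO sites, which Igf2bp1 and Igf2bp3 did not have. Over all genes listed in both genotypes 54.1% had such a pair. The share among the 68 genes was not counted, so the lack of a pair is not shown to be unusual. The likeness rests on 2 libraries' peaks per genotype and on best values only.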

How the data were processed

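MeRIP-seq of mouse embryonic pancreas was analysed from the authors' site lists, 1 per genotype. RNA was fragmented to roughly 200 nt and then immunoprecipitated, per the labels' protocols. Per the submitters' processing notes, cutadapt 1.9.3 and HISAT2 2.0.4 were used, with build mm10. Peak names begin with MACS; no source used here gives its version or how listed sites were chosen from peaks. The deposited score, the fold (ratio of MeRIP over input) and the false discovery rate in percent are the authors' values per site, per the file headers. Each MeRIP library is assumed to be set against its own genotype's input.

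Starts were read as 0-based (449 WT sites then begin at an annotated gene start, against 36 otherwise) and are printed 1-based. Gene symbols came from a GRCm38 table by gene identifier, then accession, symbol or unique synonym; all member sites matched by identifier. Strand and start sites came from RefSeq promoter windows, with 250 bases before and 50 after the start. Place along a gene is that of the site's centre. Percentages of a list below a site count strictly lower values. The overlap search was tested on simulated intervals. Python 3.11.15 and pandas 2.3.3 were used.

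The members, lists and rules were chosen with earlier results of these data known. All members are named, with the listed context genes and the 3 genes nearest in pattern to the members with most WT sites. Motifs within sites and protein comparisons were not analysed here.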

Additional observations from a re-analysis of the deposited data

How the results depend on the processing

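Of 50 recomputed counts under 10 alternatives, 30 were equal to the reported count or within 1.5 times of it. Some of these could not change: where only the WT list was shortened, the counts of KO genes and KO sites were fixed. The tally is therefore no measure of stability. Requiring a score of at least 100 left 3 genes with a WT site (Fto, Ythdf2 and Igf2bp2), 3 WT sites, and 0 genes with a KO site, 0 genes in both, 0 KO sites and 0 overlapped sites; of all genes with a WT site 14.0% were then in both lists, against 38.0% as reported. Keeping only as many WT sites as the KO list has, by fold enrichment, left 3 genes with a WT site (Fto, Alkbh5 and Igf2bp1), 3 WT sites, 1 gene in both (44.0% of all genes with a WT site) and 0 overlapped sites. By score it left 3 genes, 3 WT sites, 0 genes in both (44.95% of all) and 0 overlapped sites. The upper 75% of each list held 9 WT sites and 3 KO sites of these genes and 0 overlapped sites. The overlapped count was also 0 with a fold enrichment of at least 5, without intervals of 1000 bp or more, and with identical ends required, since it rests on the Ythdf3 pair alone. It stayed at 1 with a 50% overlap of both intervals. With a false discovery rate of at most 50%, Ythdf2 alone left the WT genes. Its site had the highest score among the WT sites of these genes. As the highest scores of these WT sites had the highest rates, this limit took out the top score first. Sequencing depth is unknown, so what depth limits cannot be given. No paired analysis was possible because each group has 1 library.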
